A study of Mus musculus with 8 samples.

Results

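The 10 genes described here supply NADPH, handle NAD inside mitochondria or, in the case of Nudt12, cleave NADH and NADPH. They were taken by symbol, for their known function: the NAD kinases Nadk and Nadk2, the mitochondrial NAD carrier Slc25a51, the NADH pyrophosphatase Nudt12, the transhydrogenase Nnt, and the NADPH-forming dehydrogenases Idh1, Idh2, Me1, G6pdx and Pgd. All 10 were found among the 41388 genes of the deposited tables, and all 10 were among the 16705 genes with enough counts to be tested. Brown adipose tissue of 8 C57BL/6J mice was profiled by RNA sequencing after removal of rRNA, 1 library per mouse. The 4 ANKO mice carried floxed Nampt alleles and a Cre transgene under the adiponectin promoter, which acts in adipocytes and not in the other cells of the tissue. The 4 WT mice carried floxed alleles and were labelled wild type. All mice were kept at room temperature on regular chow, and their age is not given in the sources used here.

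Nampt makes nicotinamide mononucleotide, the precursor from which most tissues rebuild NAD+. NAD+ is phosphorylated by NAD kinases to NADP+, which dehydrogenases of the cytosol and of the mitochondria then reduce to NADPH. NADPH drives fatty acid synthesis, which brown fat carries out at a high rate, and the removal of peroxides. The inner mitochondrial membrane is impermeable to NAD(P)(H), so mitochondria depend on an NAD carrier and on their own NADP-reducing enzymes.

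Promoter sequences are shown for the 3 genes with an antioxidant element match in a promoter window. These are the cytosolic NADPH-forming genes Me1 and Pgd, which rose in ANKO, and G6pdx, which was not called. All promoters at hand were searched for the core of the antioxidant response element, the motif known to be bound by NRF2. The letters searched were TGACNNNGC, on both strands. RefSeq promoters (GRCm38.p6) were at hand for 6 of the 10 genes, in 10 windows from 250 bases before to 50 bases after a start site: Nadk, Idh1, Idh2, Me1, G6pdx and Pgd. Each sequence runs 5′ to 3′ along its gene, from 150 bases before to 30 bases after the start, with any match in capitals.
Me1 (chr9:86695885-86696064, minus strand): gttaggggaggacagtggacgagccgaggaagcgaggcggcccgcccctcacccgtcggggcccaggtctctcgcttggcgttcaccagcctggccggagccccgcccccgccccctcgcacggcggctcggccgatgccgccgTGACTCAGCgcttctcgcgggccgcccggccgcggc
G6pdx (chrX:74428851-74429030, minus strand): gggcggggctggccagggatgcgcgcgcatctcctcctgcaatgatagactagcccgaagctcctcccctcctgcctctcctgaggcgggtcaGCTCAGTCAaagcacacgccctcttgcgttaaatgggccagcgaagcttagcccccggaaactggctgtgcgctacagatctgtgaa
Pgd (chr4:149166676-149166855, minus strand): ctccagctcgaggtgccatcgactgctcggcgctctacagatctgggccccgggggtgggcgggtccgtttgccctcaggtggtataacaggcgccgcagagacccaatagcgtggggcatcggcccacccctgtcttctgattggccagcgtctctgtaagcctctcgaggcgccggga
In Me1 the match TGACTCAGC began 6 bases before the start and ran across it. In G6pdx the match was on the opposite strand and began 57 bases before the start. The Pgd sequence shown had none, and a second Pgd window held TGACATTGC, beginning 3 bases past its start. The second Me1 window and the windows of Idh1, Idh2 and Nadk, which are not shown, held no match to TGACNNNGC. Over the full windows, 3 of 10 held the motif, against 4071 of 32851 RefSeq mouse promoters (12.4%). The E-box CACGTG was found in 1 of the 10, in the second Nadk window, and in 7.15% of all promoters. The sterol response element TCACNCCAC was found in 0 of the 10 and in 1.24% of all promoters.

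The ANKO libraries held 5738067 to 26426476 gene counts and the WT libraries 21771276 to 49697156. The targeted gene Nampt had 67.4, 69.5, 77.6 and 74.6 CPM (counts scaled to a common library size) in ANKO libraries 1 to 4, against 484, 484, 571 and 495 CPM in WT libraries 1 to 4, so it stood at 14.2% of the WT level (log2 fold change -2.81, SE 0.12, edgeR adjusted p = 1.51e-07). Brown adipocyte markers were present throughout. Of these 10 markers, 0 were called higher and 8 lower, and their summed level was 1038 to 3612 CPM in ANKO and 7076 to 14539 CPM in WT. General adipocyte markers summed to 5577 to 8147 CPM in ANKO and 13444 to 15690.3 CPM in WT (1 of 8 higher, 6 lower). Markers of several other cell types were higher. Macrophage markers (10 of 10 higher) summed to 1159 to 1618 CPM in ANKO and 145 to 189 CPM in WT, and fibroblast markers (6 of 6 higher) to 3307 to 6157 CPM in ANKO and 747 to 1108 CPM in WT. Lymphocyte markers (8 of 9 higher) summed to 194 to 249 CPM in ANKO and 20.8 to 23.6 CPM in WT. Skeletal muscle markers (8 of 10 higher) summed to 8883, 9986, 13418 and 13273 CPM in ANKO, against 863, 2520.4, 111 and 29.1 CPM in WT, so the WT libraries also stood apart from each other. Of the remaining lists, endothelial markers had 1 of 6 higher and 3 lower, Schwann cell markers 2 of 5 higher and 1 lower, and erythroid markers 4 of 4 tested lower. Of 6 neutrophil markers 1 was tested, and higher, while Ly6g had no count in any library. In whole tissue, fewer cells of a type and less RNA per cell cannot be told apart. The part of cell makeup in the differences that follow was not tested, beyond the fits that leave out WT libraries or carry a marker level as a covariate.

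**Figure D1:**
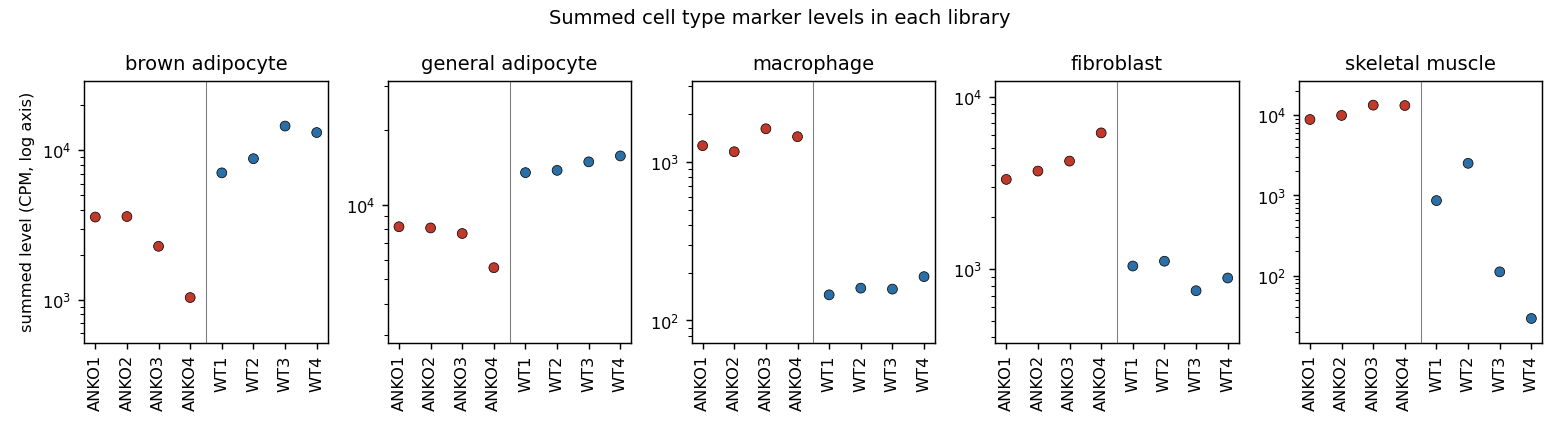
Summed level of 5 marker lists in each library (CPM, log axis), 1 point per library, ANKO left and WT right of each line. Brown adipocyte sums lie at 1038 to 3612 CPM in ANKO and 7076 to 14539 CPM in WT, and muscle sums in the 4 WT libraries spread between 29.1 and 2520.4 CPM.

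In ANKO brown fat, the genes did not move in a common direction. Both NAD kinases, the mitochondrial NAD carrier, Nudt12 and the mitochondrial Idh2 fell, whereas the cytosolic Me1 and Pgd and the mitochondrial Nnt rose. With edgeR at an adjusted p under 0.05, 8 of the 10 genes were called, 3 higher and 5 lower, and 2 were not called (Idh1 and G6pdx). Over all genes tested, 58.2% were called, 30.6% higher and 27.6% lower. The same 8 genes had groups that did not overlap, as did 55.0% of all genes (28.7% higher and 26.4% lower). The median log2 fold change was -0.47 over the 10 genes and -0.01 over all tested genes. Where library sizes were taken as total counts alone, without a scaling factor, that median over all genes shifted by 0.18, the calls over all genes were 5897 higher and 2940 lower, against 5111 higher and 4615 lower with scaling, and the 8 calls and their directions were the same.

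**Figure D2:**
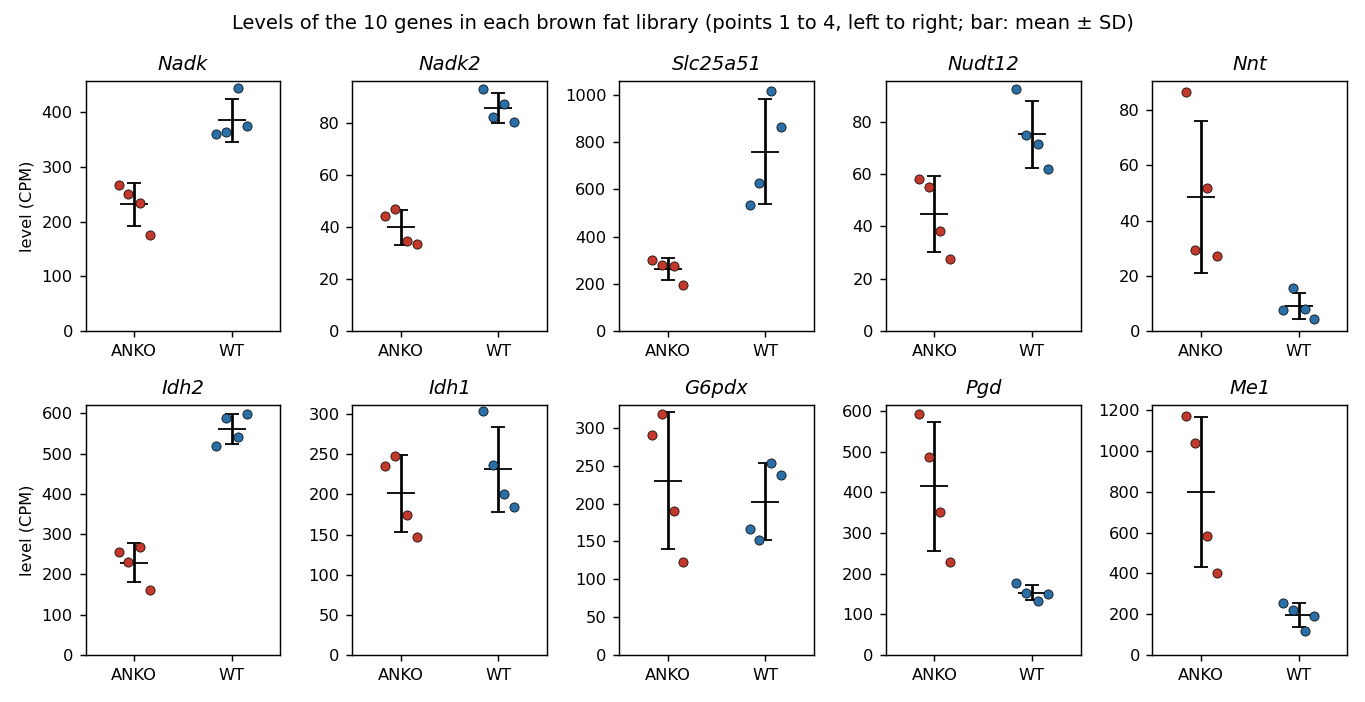
Level of each of the 10 genes (CPM) in ANKO (left) and WT (right) libraries, 4 points each in the order of the replicate numbers, with the mean and SD. The groups are apart for every gene but Idh1 and G6pdx.

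Per gene length, as RPKM (CPM divided by gene length), the order of the mean levels in ANKO was Me1, Idh2, G6pdx, Idh1, Pgd, Nadk, Slc25a51, Nudt12, Nadk2 and Nnt. In WT it was Idh2, Slc25a51, Nadk, Idh1, G6pdx, Me1, Pgd, Nadk2, Nudt12 and Nnt. Within ANKO each neighbour from Idh2 (88.4 ± 18.7 RPKM) down to Slc25a51 (47.9 ± 8.72 RPKM) had overlapping SDs, as did Nudt12 (10.2 ± 3.26 RPKM), Nadk2 (9.19 ± 1.56 RPKM) and Nnt. In WT the same held for the neighbours from Slc25a51 (138 ± 40.1 RPKM) down to Me1 (50.8 ± 15.4 RPKM) and from Pgd (23.7 ± 2.90 RPKM) down to Nudt12 (17.1 ± 2.87 RPKM), so the order among these is not fixed by 4 libraries per group. Me1 in ANKO and Idh2 in WT stood above the next gene by more than both SDs.

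The NAD kinases make NADP+ from NAD+, Nadk in the cytosol and Nadk2 in mitochondria. Nadk (ENSMUSG00000029063, GRCm38 chromosome 4, 155562378 to 155591001, plus strand) had 266, 251, 234 and 176 CPM in ANKO, against 359.8, 363, 443 and 375 CPM in WT. Every ANKO library lay under every WT library, with a 1.66-fold lower mean in ANKO (log2 fold change -0.73, SE 0.15, edgeR adjusted p = 0.00176). Nadk2 (ENSMUSG00000022253, chromosome 15, 9071260 to 9110487, plus strand) had 44.2, 47.1, 34.7 and 33.7 CPM in ANKO, against 93.1, 82.2, 87.1 and 80.4 CPM in WT. The mitochondrial kinase was 2.14-fold lower in ANKO, again with no overlap (log2 fold change -1.10, SE 0.12, edgeR adjusted p = 4.14e-05). Per gene length, Nadk2 stood at 0.143, 0.162, 0.128 and 0.165 of the Nadk level (ratio of RPKM) in ANKO, against 0.223, 0.195, 0.169 and 0.185 in WT. The ratio was lower in all 4 ANKO libraries, by a narrow margin, and the two-sided p of an exact permutation test was 0.0286, which is the lowest value that 4 libraries per group permit. It was 1 of 6 RPKM ratios tested, all with that p and with 0.0286 after Benjamini-Hochberg adjustment. Several of the 6 share genes, and each holds a gene that was called by itself. These p-values are therefore not independent of each other or of the calls of single genes, and ratios of other genes were not tested.

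Slc25a51 carries NAD+ into mitochondria, and with all 8 libraries its log2 fold change was the lowest of the 10 genes. Slc25a51 (ENSMUSG00000045973, chromosome 4, 45395923 to 45408766, minus strand) had 302, 282, 278 and 193 CPM in ANKO, against 533, 627, 1018 and 864 CPM in WT. Its mean was 264 ± 48.0 CPM in ANKO and 761 ± 221 CPM in WT (SD, n = 4 each), 2.88-fold lower in ANKO (log2 fold change -1.53, SE 0.23, edgeR adjusted p = 0.000268). The WT libraries with more muscle marker RNA, WT1 and WT2, had the lower levels of Slc25a51, and the log2 fold change was -1.86 without that pair and -1.15 without WT3 and WT4, called both times. Per length it ranked second among the 10 genes in WT and seventh in ANKO, where its mean was 47.9 ± 8.72 RPKM against 138 ± 40.1 RPKM in WT.

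Nudt12 is a pyrophosphatase that cleaves NADH and NADPH and has been placed in peroxisomes and the cytosol. Nudt12 (ENSMUSG00000024228, chromosome 17, 58999618 to 59013372, minus strand) had 58.0, 55.1, 38.2 and 27.7 CPM in ANKO, against 92.3, 74.8, 71.4 and 62.0 CPM in WT. The groups came close, at 58.0 CPM in the highest ANKO library and 62.0 CPM in the lowest WT library, and the difference was 1.67-fold lower in ANKO (log2 fold change -0.74, SE 0.22, edgeR adjusted p = 0.0163). Without WT1 and WT2 the log2 fold change was -0.59 and was no longer called (edgeR adjusted p = 0.0704). The antisense gene Nudt12os overlaps it, at 0.250 CPM in ANKO, against 0.480 in WT.

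Nnt, the transhydrogenase of the inner membrane, uses the proton gradient to make NADPH from NADH. Nnt (ENSMUSG00000025453, chromosome 13, 119335448 to 119408997, minus strand) had 86.4, 29.4, 51.7 and 27.1 CPM in ANKO, against 7.57, 15.7, 8.15 and 4.57 CPM in WT. It was the scarcest of the 10 per length in both groups, at 6.91 ± 3.91 RPKM in ANKO and 1.28 ± 0.675 RPKM in WT (SD, n = 4 each). Its mean was 5.50-fold higher in ANKO, with a wide interval (log2 fold change 2.46, 95% interval 1.31 to 3.61, edgeR adjusted p = 0.00345). The highest library stood 3.19-fold over the lowest in ANKO and 3.44-fold in WT. The WT library with the most muscle marker RNA, WT2, was the highest of its group. Other libraries did not follow that order. WT1 (muscle marker sum 863 CPM) had less Nnt than WT3 (111 CPM), and ANKO1, with the lowest muscle marker sum in ANKO (8883 CPM), had the most Nnt. The log2 fold change was 2.95 without WT1 and WT2 and 2.06 without WT3 and WT4. C57BL/6J mice are known for a deletion within Nnt that removes the working protein. The deposited values are 1 sum per gene and do not separate exons or alleles, so whether these mice carry it was not tested.

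Genes close to Nnt did not move as 1 block. Of 37 listed genes within 1 Mb, 14 were tested, with 3 higher, 4 lower and 7 not called, and none of them overlaps Nnt. The shares over all tested genes were 30.6% called higher and 27.6% called lower. Fgf10, a growth factor gene 543333 bases away, had a mean of 30.4 CPM in ANKO and 4.49 CPM in WT (log2 fold change 2.75). Hmgcs1, which makes hydroxymethylglutaryl-CoA for cholesterol synthesis, had 198 CPM in ANKO and 524 CPM in WT (-1.41). The log2 fold change was -1.42 for Nim1k, -0.87 for Zfp131, 1.80 for Gm16263 and 3.09 for BC147527, which was near the limit of counting at 0.711 CPM in ANKO, against 0.0734 in WT. The nearest tested gene, Paip1, chosen after its value was seen, differed by 0.03 (SE 0.09, edgeR adjusted p = 0.801).

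The isocitrate dehydrogenases form NADPH from isocitrate, Idh2 in mitochondria and Idh1 in the cytosol and peroxisomes. Idh2 (ENSMUSG00000030541, chromosome 7, 80094846 to 80115392, minus strand) had 255, 231, 269 and 160.3 CPM in ANKO, against 519.5, 589, 541 and 598 CPM in WT. The gap between the groups was far wider than the spread within either, and Idh2 was 2.45-fold lower in ANKO (log2 fold change -1.30, SE 0.17, edgeR adjusted p = 0.000105). Idh1 (ENSMUSG00000025950, chromosome 1, 65158616 to 65186500, minus strand) had 236, 248, 175 and 147 CPM in ANKO, against 304, 237, 201 and 184 CPM in WT. The groups overlapped, and the log2 fold change of -0.20 had a 95% interval of -0.65 to 0.25 (edgeR adjusted p = 0.419). Idh2 per Idh1 was 1.16, 0.996, 1.65 and 1.17 in ANKO, against 1.83, 2.66, 2.89 and 3.47 in WT (ratio of RPKM), so every ANKO library lay under every WT library. The ratio averaged 1.24 ± 0.282 in ANKO and 2.71 ± 0.681 in WT (SD, n = 4 each, exact two-sided permutation p = 0.0286).

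Malic enzyme Me1 oxidises cytosolic malate to pyruvate and is a main NADPH source for lipogenesis. Me1 (ENSMUSG00000032418, chromosome 9, 86581371 to 86695953, minus strand) had 1174, 1039, 583 and 402 CPM in ANKO, against 256, 219.7, 117 and 189 CPM in WT. Even the lowest ANKO library exceeded the highest WT library, and the mean was 4.09-fold higher in ANKO (log2 fold change 2.03, SE 0.36, edgeR adjusted p = 0.00104). Me1 was sixth of the 10 genes per length in WT, at 50.8 ± 15.4 RPKM, and first in ANKO, at 208 ± 95.2 RPKM. An antisense gene, A330041J22Rik, overlaps it and was at 2.32 CPM in ANKO, against 0.862 in WT, far under Me1.

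G6pdx and Pgd encode the dehydrogenases of the first and the third step of the oxidative pentose phosphate pathway. Pgd (ENSMUSG00000028961, chromosome 4, 149149991 to 149166771, minus strand) had 593, 487, 351 and 229 CPM in ANKO, against 177, 153, 132 and 149 CPM in WT. The WT libraries lay close together under all ANKO libraries, and Pgd was 2.72-fold higher in ANKO (log2 fold change 1.44, SE 0.26, edgeR adjusted p = 0.000896). G6pdx (ENSMUSG00000031400, chromosome X, 74409483 to 74429194, minus strand) had 290.1, 319, 189.9 and 123 CPM in ANKO, against 167, 152, 253 and 238 CPM in WT. The lowest and the highest value of all 8 libraries were both ANKO libraries, and the log2 fold change of 0.19 had a 95% interval of -0.47 to 0.84 (edgeR adjusted p = 0.605), which spans changes in either direction. Pgd per G6pdx was 0.976, 0.729, 0.882 and 0.886 in ANKO, against 0.508, 0.479, 0.249 and 0.299 in WT (ratio of RPKM), with no overlap (exact two-sided permutation p = 0.0286). Ikbkg overlaps G6pdx on the other strand at 78.8 CPM in ANKO, against 78.2 in WT, and with the strand setting unknown reads of the overlapping genes cannot be told apart.

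Within ANKO, Me1, Pgd, Nudt12, Nadk, Slc25a51 and Nnt were highest in ANKO1 and lowest in ANKO4, as was the general adipocyte marker sum (8147, 8057, 7652 and 5577 CPM), while the fibroblast marker sum was highest in ANKO4. Me1 differed 2.92-fold between those ANKO libraries and Idh2 1.68-fold between the highest and the lowest. Whether adipocyte content sets this order was not tested.

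**Figure D3:**
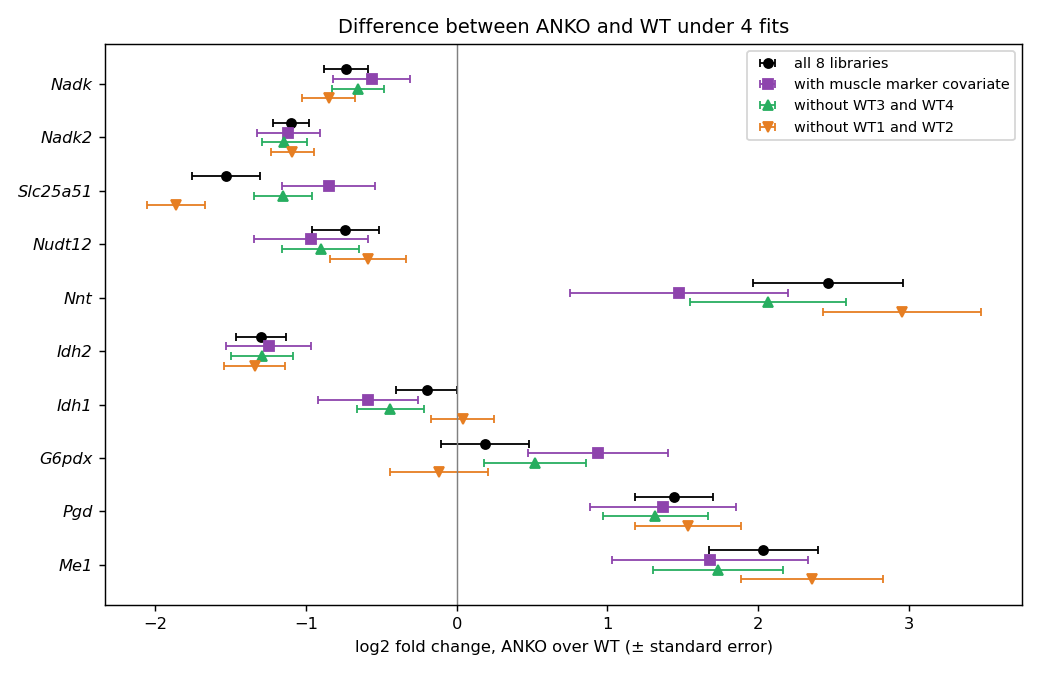
log2 fold change of ANKO over WT (± SE) for each of the 10 genes with all 8 libraries, with a muscle marker covariate, without WT3 and WT4, and without WT1 and WT2. Slc25a51 moves most between fits among the lower genes, at -0.85 to -1.86, and Idh1 and G6pdx lie on both sides of 0.

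The direction of the 8 called genes was the same in all 4 fits drawn in the plot of log2 fold changes, but their calls were not. With the mean level of the muscle markers as a covariate, which itself differed between the groups, 25.4% of all genes were called and 2 of the 10 genes: Idh2 (-1.25) and Nadk2 (-1.12). The other calls were lost, at 1.68 for Me1 (edgeR adjusted p = 0.0894), 1.37 for Pgd (0.0660), 1.47 for Nnt (0.171), -0.85 for Slc25a51 (0.0696), -0.97 for Nudt12 (0.0923) and -0.56 for Nadk (0.134). With macrophage markers as a covariate, whose sums lay far apart in the groups, 0 genes were called by edgeR, 1180 of 16705 had an unadjusted p under 0.05, and the log2 fold changes of Nadk, Nadk2, Nudt12 and Idh1 reversed to 0.79, 1.92, 4.68 and 4.91. Both marker levels differ between the groups, and in such fits genotype and marker level cannot be told apart.

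Set side by side per length, the 6 NADPH-forming enzymes differed in proportion more than in sum. Their summed level was 687, 632, 442 and 299 RPKM in ANKO, against 459.8, 446, 416 and 448 RPKM in WT, which overlap. Me1 made up 44.4%, 42.7%, 34.3% and 35.0% of that sum in ANKO, against 14.5%, 12.8%, 7.32% and 11.0% in WT. Idh2 made up 14.3%, 14.1%, 23.5% and 20.7% in ANKO, against 43.7%, 51.1%, 50.3% and 51.6% in WT. The leading enzyme of the sum was therefore Me1 in each ANKO library and Idh2 in each WT library. Pgd made up 12.4% ± 0.697 in ANKO and 5.35% ± 0.452 in WT, and Nnt 1.35% ± 0.506 in ANKO and 0.290% ± 0.152 in WT (SD, n = 4 each). The shares of Idh1 and G6pdx overlapped between the groups. Idh1 held 14.6% ± 2.26 in ANKO and 18.8% ± 3.80 in WT, and G6pdx 14.4% ± 1.37 in ANKO and 15.0% ± 4.24 in WT. The mitochondrial pair, Idh2 and Nnt, together made up 19.5% ± 4.90 in ANKO and 49.4% ± 3.74 in WT. Shares of mRNA say nothing of enzyme amount or flux, and they are bound together, since they sum to the whole.

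**Figure D4:**
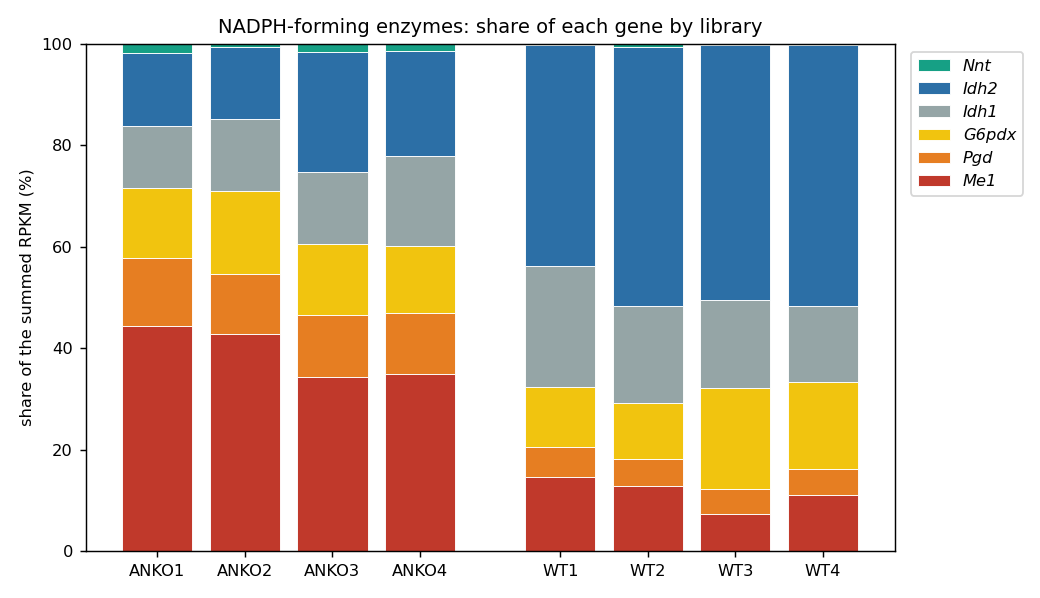
Share of each of the 6 NADPH-forming enzymes in their summed RPKM (%), 1 bar per library, ANKO left and WT right. Me1 holds 34.3% to 44.4% of the ANKO bars and 7.32% to 14.5% of the WT bars, and Idh2 holds 14.1% to 23.5% of the ANKO bars and 43.7% to 51.6% of the WT bars.

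The lower mitochondrial genes Idh2, Nadk2 and Slc25a51 stood among other mitochondrial genes that fell. NAD-linked mitochondrial dehydrogenases fell in 10 of 11 cases, with a median log2 fold change of -1.20, and 0 rose. Of all tested genes, 27.6% were called lower. Hadh of fatty acid oxidation averaged 509 CPM in ANKO and 1464 CPM in WT (2.88-fold lower), the citrate cycle subunit Idh3a 407 CPM in ANKO, against 1194 in WT (2.93-fold lower), and Bckdhb of branched-chain amino acid breakdown 76.7 CPM in ANKO, against 156 CPM in WT (2.03-fold lower). The exception was Pdhb of pyruvate dehydrogenase at -0.05, chosen after its value was seen. On the log2 scale, relative to the mean of these 11 genes in the same library, Idh2 stood at -1.02 in ANKO and -0.87 in WT, Nadk2 at -3.53 in ANKO and -3.58 in WT, and Slc25a51 at -0.81 in ANKO and -0.48 in WT, and the groups overlapped for all 3. Nnt stood at -3.39 in ANKO and -6.97 in WT, with no overlap.

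Further genes of NADPH and NAD(H) handling, from lists of known function, were also called in both directions. Of 98 tested genes in 10 lists, 27 were called higher and 44 lower. The shares over all tested genes were 30.6% called higher and 27.6% called lower. The same shares are the background for each list below. Among 11 other genes around NADPH formation, 4 were higher and 6 lower (median -0.35). The list holds genes of one-carbon metabolism called in both directions. Mthfd2, a methylene-tetrahydrofolate dehydrogenase, averaged 13.2 CPM in ANKO and 1.79 CPM in WT (7.42-fold higher), Aldh1l2, which releases NADPH from formyl-tetrahydrofolate, 3.22 CPM in ANKO, against 1.32 in WT (2.47-fold higher), and Mthfd1l, a ligase that itself forms no NADPH, 5.37 CPM in ANKO, against 1.74 CPM in WT (3.03-fold higher). Named after their values were seen, Mthfd1 (log2 fold change -0.72) and Aldh1l1 (-0.86), one-carbon enzymes of the cytosol, were lower, and the mitochondrial Mthfd2l was not called (-0.06, edgeR adjusted p = 0.735). The lower ones included the mitochondrial malic enzyme Me3, at 19.3 CPM in ANKO, against 69.6 in WT (3.58-fold lower), Glud1, the glutamate dehydrogenase, at 137 CPM in ANKO, against 363 in WT (2.66-fold lower), and Pgls, at 74.6 CPM in ANKO, against 169.7 in WT (2.27-fold lower). Pgls hydrolyses the lactone between G6pdx and Pgd and forms no NADPH, so of these 3 pentose phosphate genes 1 was higher, 1 lower and 1 not called. Of the 5 non-oxidative pentose phosphate genes, 0 were higher and 1 lower (median 0.19): the epimerase Rpe, at 50.9 CPM in ANKO, against 96.2 in WT.

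Of 7 genes listed as repairing or removing NAD(P)H, 5 were lower and 0 higher (median -0.66). Nudt7 and Nudt19, which were not called, are known for cleaving coenzyme A. Noct, which removes the phosphate from NADP(H), had the widest gap of the list, at 65.8 CPM in ANKO, against 489.6 in WT (7.45-fold lower). Nudt13, a mitochondrial NAD(P)H pyrophosphatase, was 1.87-fold lower, and Naxe, which repairs hydrated NAD(P)H, 1.58-fold lower. Nudt12, described above, fell beside them.

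Among 20 tested enzymes listed as NADPH users, 9 were higher and 5 lower (median 0.21). Cybb, the phagocyte NADPH oxidase and a gene of macrophages, averaged 93.5 CPM in ANKO and 6.45 CPM in WT (14.5-fold higher), beside macrophage markers of which 10 of 10 were higher. Nqo1, a quinone reductase, was 5.92-fold higher, at 9.71 CPM in ANKO, against 1.65 in WT, and Aldh1a1, a retinaldehyde dehydrogenase that uses NAD and not NADPH, was 4.81-fold higher. Por, the electron donor of cytochromes P450, was 1.72-fold lower, Mecr of mitochondrial fatty acid synthesis 2.10-fold lower and Hsd11b1, which reactivates glucocorticoids, 1.76-fold lower. Fasn, the main lipogenic NADPH user, had a log2 fold change of 0.98 (SE 0.37, edgeR adjusted p = 0.0429), named after its value was seen. Mitochondrial peroxide removal draws on NADPH through thioredoxin and glutathione. Of 8 genes listed under it, 6 were lower and 0 higher (median -0.84). The lower ones include Sod2 and Glrx5, which do not themselves remove peroxide and do not use NADPH. There Txn2, the mitochondrial thioredoxin, averaged 56.2 CPM in ANKO and 120.0 CPM in WT (2.13-fold lower), the peroxiredoxin Prdx5 was 1.95-fold lower and the glutaredoxin Glrx2 1.60-fold lower.

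The carriers and shuttles that tie citrate and malate to cytosolic NADPH held genes of both directions. Of 10 genes listed under citrate and pyruvate carriage and citrate cleavage, 3 were higher and 4 lower (median -0.15). The lower ones include Slc25a20, which carries neither citrate nor pyruvate. The citrate carrier Slc25a1 averaged 1050.0 CPM in ANKO and 262 CPM in WT (4.01-fold higher), and the dicarboxylate carrier Slc25a10 155 CPM in ANKO, against 31.1 CPM in WT (5.01-fold higher). The citrate-cleaving Acly, at 5341 CPM in ANKO, against 1625 in WT, was 3.29-fold higher (edgeR adjusted p = 0.0232). It was not called without ANKO1, ANKO2 or WT4, nor with no filter on low counts, nor without WT3 and WT4 together (log2 fold change 1.14, edgeR adjusted p = 0.104). Acly was also not called with the muscle or the macrophage marker covariate. Aco1, the cytosolic aconitase, was 1.91-fold lower and the citrate synthase Cs 2.37-fold lower. Of 11 genes of NADH shuttles, 4 were higher and 5 lower (median -0.46). The aspartate-glutamate carrier Slc25a12 averaged 74.2 CPM in ANKO and 10.4 CPM in WT (7.17-fold higher), and the transaminases Got1 and Got2 were 2.64-fold and 2.62-fold higher. Mdh2, Slc25a11 and Slc25a22 were 2.11-fold, 1.69-fold and 1.57-fold lower. Slc25a12 and Got1 are also abundant in skeletal muscle, whose markers were higher in ANKO. Both kept their direction and call in 21 of 22 alternatives, the muscle marker covariate among them. The part of muscle RNA in their differences was not tested further. Other genes did not keep their call with that covariate. Of the 39 genes named from the lists by smallest p, 24 kept it and 15 lost it. Slc25a1, Acly, Cs, Mdh2 and Slc25a11 were among those that lost it.

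**Figure D5:**
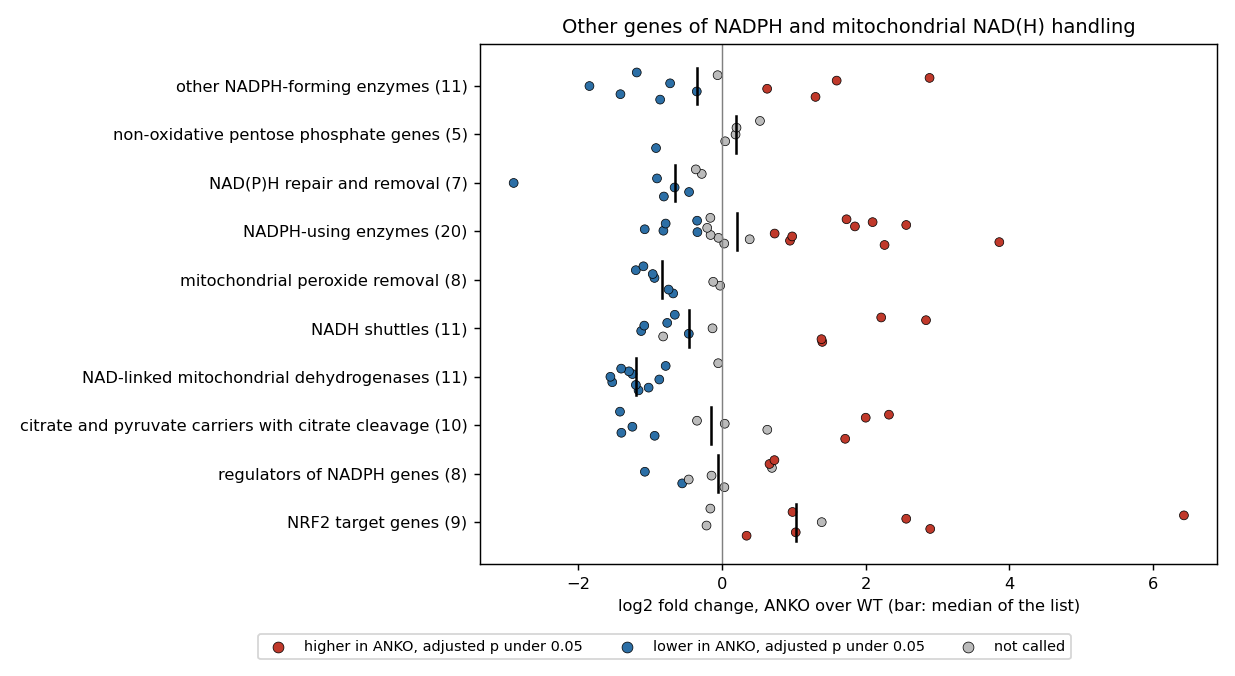
log2 fold change of ANKO over WT for the tested genes of 10 lists (number tested in brackets), 1 point per gene, coloured by call, with a bar at the list median. All called NAD-linked mitochondrial dehydrogenases (10 of 11) and genes listed under peroxide removal (6 of 8) are lower, and all called NRF2 target genes (6 of 9) are higher.

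NRF2 target genes were higher in 6 of 9 cases and lower in 0 (median 1.03, against -0.01 over all tested genes). Besides Nqo1, Slc7a11, the cystine carrier, averaged 15.8 CPM in ANKO and 0.187 CPM in WT, and Gsta3, a glutathione transferase, 28.8 CPM in ANKO, against 3.90 CPM in WT (7.47-fold higher). The mRNA of NRF2 itself, Nfe2l2, had a log2 fold change of -0.14 (SE 0.11, edgeR adjusted p = 0.266), and was not called. The lipogenic factors Srebf1 (0.70, SE 0.45, edgeR adjusted p = 0.208) and Mlxipl (-0.46, SE 0.20, edgeR adjusted p = 0.0736) were not called either, and these 3 genes were named after their values were seen. Of 8 regulators of NADPH genes, 2 were higher and 2 lower (median -0.05). Trp53 was 1.66-fold and Tigar, which diverts glucose 6-phosphate toward the pentose phosphate pathway, 1.58-fold higher, and Pparg, the adipocyte regulator, was 2.10-fold and Mlx 1.47-fold lower. The log2 fold changes of the 3 genes with an antioxidant element match in a promoter window were 2.03 for Me1, 1.44 for Pgd and 0.19 for G6pdx, which was not called.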

How the data were processed

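Total RNA of 8 brown fat samples was rRNA-depleted with Ribo-Zero Gold, per the labels' protocols. STAR 2.0.4b, featureCounts 1.45 (Subread) and GRCm38 are named in the submitters' processing notes. For annotation, strand setting and multi-mapping rule, the sources used here give nothing. Per the file headers, the deposited tables give a count, a CPM and an RPKM per gene. CPM and RPKM were reproduced from the counts to within 1e-09 in all 8 libraries, and the counts entered the tests. CPM and RPKM printed here were recomputed with scaled library sizes.

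Symbols came from GENCODE M21 (40254 of 41388 IDs matched). The 355 rRNA rows were left out, at 0.801% to 1.13% of counts in ANKO and 2.83% to 3.53% in WT. edgeR 4.0.16 (R 4.3.3) was run with filterByExpr, TMM scaling and a robust quasi-likelihood fit over 16705 genes, with Benjamini-Hochberg adjustment and an adjusted p under 0.05 called. The biological coefficient of variation was 20.6%. Members had 153 to 37983 counts per library. The fit was also run on simulated data with 200 changed genes, far fewer than were called here. That simulation does not test the fit where most genes differ. Groups follow the titles, and the series design names 4 mice per group. No libraries agreed within sampling noise (lowest chi-square per degree of freedom 6.95).

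The 10 genes and all lists were chosen with earlier results of these data known. Named genes are Nampt, the 10, up to 3 called genes per direction and list by smallest p, and up to 6 called neighbours of Nnt. One gene taken by these criteria is left out here. RPKM ratios were compared with exact permutation tests over 70 splits. Alternatives numbered 22: other scalings and filters, DESeq2 1.42.0, limma-voom (limma 3.58.1), a replicate block, marker covariates, protein-coding nuclear genes, thinned counts and left-out libraries. Leaving out WT1 and WT2 together was chosen after seeing the data. Figures were drawn with matplotlib 3.10.9.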

Additional observations from a re-analysis of the deposited data

Results flagged for a closer look

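One value stood apart from its group. Nampt was at 571 CPM in WT3, against 484 to 495 CPM in the other 3 WT libraries, and the gap was 0.875 of the range of the group, above the critical value of Dixon's test for 4 samples. It was 1 of 22 groups of 4 tried (Nampt and the 10 genes in ANKO and in WT), and chance alone marks about 1 group in 20. None of the 10 genes had such a library.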

How the results depend on the processing

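The direction and call of each of the 10 genes were compared over 22 alternatives. Leaving out 1 library at a time gave 8942 to 10467 called genes (4780 to 5555 higher, 4098 to 4912 lower), 24 to 28 higher and 41 to 45 lower genes of the pathway lists, and 3 higher and 5 lower of the 10 each time. G6pdx then ranged between -0.016 and 0.39 and Idh1 between -0.32 and -0.06, neither called. The replicate block called 9239 genes and changed no call among the 10. Same-numbered libraries deviated with correlations of 0.11, -0.01, 0.07 and -0.05. These values gave no sign of pairing by number, but such correlations cannot exclude that the mice were paired. Total counts alone called 2940 genes lower, against 4615. Without WT1 and WT2, Nudt12 was -0.59 and not called, Idh1 0.042 and G6pdx -0.12, with 3 higher and 4 lower of the 10. With the muscle covariate 4240 genes were called (2436 higher, 1804 lower), 0 higher and 2 lower of the 10, with 6 of the 10 under an unadjusted p of 0.05, and 17 higher and 17 lower of the lists. Its losses were Nadk -0.56, Slc25a51 -0.85, Nnt 1.47, Nudt12 -0.97, Me1 1.68 and Pgd 1.37, and the median SE was 0.28, against 0.18. With the macrophage covariate (median SE 1.83) edgeR called 0 genes in every set, 1180 having an unadjusted p under 0.05. There Nampt was -3.51, Slc25a51 -1.63, Nnt 4.87, Idh2 -1.78, Me1 8.19 and Pgd 5.85, none called, and the sign reversed for Nadk 0.79, Nadk2 1.92, Nudt12 4.68, Idh1 4.91, Aco1 0.90, Bckdhb 1.50, Cs 1.42, Hadh 0.95, Hsd11b1 0.11, Idh3a 0.60, Me3 0.37, Mecr 0.79, Mlx 1.23, Mthfd1l -3.26, Naxe 0.54, Nudt13 2.29, Pgls 0.89, Prdx5 0.50, Rpe 1.20, Slc25a11 1.32 and Trp53 -1.28. That fit has little within-group variation to estimate the marker slope from. ANKO libraries were shallower, and counts thinned to the lowest total kept all 8 calls.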
